A study of Melitaea cinxia with 174 samples.

Results

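Among butterflies from the Åland Islands (ÅL), individuals with a high transcript level of the hexamerin gene MCINX010010 in the thorax were compared with individuals with a low level of it. The log2(normalized count + 1) of this gene put 14 of the 49 ÅL individuals in the high group (5 or more) and 28 in the low group (under 3). The other 7 ÅL individuals lay between these thresholds, and the rest of the 174 sequenced individuals came from the other populations. The deposited files write the name of this gene as MCINXTMP_010010. The level of MCINX010010 therefore defined the groups and is described without a test.

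The study sequenced thorax RNA of the Glanville fritillary (Melitaea cinxia) from ÅL and Uppland (UP), where meadows are small fragments, and from Saaremaa (SA) and Öland (ÖL), where the habitat is continuous. Diapausing larvae were collected in the wild, a single larva per family was sequenced, and each larva was reared alone in a common garden on leaves of its host plant. Both groups consist of such wild-derived, untreated adults that were held for 3 days and then frozen, and they differ in no treatment, genotype or rearing condition that the labels record. The high group holds 9 females and 5 males, the low group 12 females and 16 males, and the individuals in between 2 females and 5 males.

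Hexamerins are large storage proteins that the larval fat body secretes into the hemolymph and takes up again before pupation as a store of amino acids. They are known for supplying the metamorphosis of the adult tissues and, in some adult insects, reproduction, and their transcription responds to ecdysteroid and juvenile hormones. Cuticular proteins, many of which carry a chitin-binding motif of the RR-1 or RR-2 type, build the exoskeleton together with chitin. Antimicrobial peptides such as defensins, cecropins, gloverins, lebocins and moricins are short secreted peptides that the fat body and hemocytes release after infection. The thorax holds mainly flight muscle, with some fat body, epidermis, tracheae and hemocytes, so that in these whole-thorax libraries more cells of a type and more RNA per cell cannot be told apart.

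Total counts within gene models ranged from 683834 to 7059826 in high individuals and from 630555 to 6582515 in low individuals. The mean total was 3649900 in the high group and 2824400 in the low group (permutation test with 100000 permutations, 2-sided, p = 0.151, adjusted p = 0.277 over 4 measures by the Benjamini-Hochberg method). High individuals had reads in 10922 ± 1277 gene models and low individuals in 10123 ± 1017 (SD, n = 14 and 28, p = 0.0337, adjusted p = 0.135). The scaling factor of the trimmed mean of M-values (TMM) method (adjusted p = 0.277) and the share of the 10 most abundant genes, 28.3% in high and 28.7% in low individuals (adjusted p = 0.866), did not pass in the same permutation test. Of the high individuals 64.3% were females, against 42.9% of the low individuals (Fisher's exact test, 2-sided, p = 0.326), and sex was a covariate in the comparison of the groups. The male AL0900290221 of the low group had a mean log2 level of 10.2 over 10 female-biased genes, where 23 labelled females had 7.27 to 9.47 and the 25 other labelled males 2.99 to 6.16, so that the sex label of this library is in doubt.

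The tissue label was checked with markers. The normalized counts of 3 flight muscle genes, 2 troponin C genes and a myosin heavy chain, summed to between 1071 and 3429 in high individuals (median 1622) and between 781 and 5452 in low individuals (median 1958). The lipid droplet gene MCINX016429, a marker of fat body, had 55.5 to 198 in high individuals (median 136) and 48.8 to 446 in low individuals (median 157). The summed level of 2 chorion peroxidase genes, markers of follicle cells and egg shell, reached at most 8.95 in high individuals, with 2 individuals at 0, and 10.02 in low individuals, with 4 individuals at 0. None of the muscle or lipid droplet markers differed between the groups at FDR<0.05, with log2 fold changes from -0.55 to 0.40 (edgeR quasi-likelihood test, lowest FDR = 0.725), and neither did the chorion peroxidases without a filter on low counts.

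High individuals had 36.6 to 1032 normalized counts of MCINX010010, with a median of 67.9, whereas low individuals had 0 to 6.57 with a median of 0.754. The individuals in between had 7.11 to 23.5 with a median of 11.6. On the log2 scale the mean was 6.59 ± 1.31 in the high group and 1.05 ± 0.93 in the low group (SD, n = 14 and 28). The levels fell along a graded series rather than in separate blocks. The lowest high individual, the male AL0911750441, had a log2 level of 5.23, and the individual just under that threshold, the male AL0906890083, had 4.62. At the other threshold, the male AL0990290271 had 3.02 and the highest low individual, the female AL0905620243, had 2.92. The 5 highest levels belonged to females, with AL0905110081 at 10.01 and the next individual at 7.83. No read of the gene was counted in 8 low individuals. With totals of 668964 to 3374474, the limit of 3 counts that a count of 0 allows corresponds to 4.48 to 0.889 CPM (counts scaled to a common total), for counting error only.

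**Figure D1:**
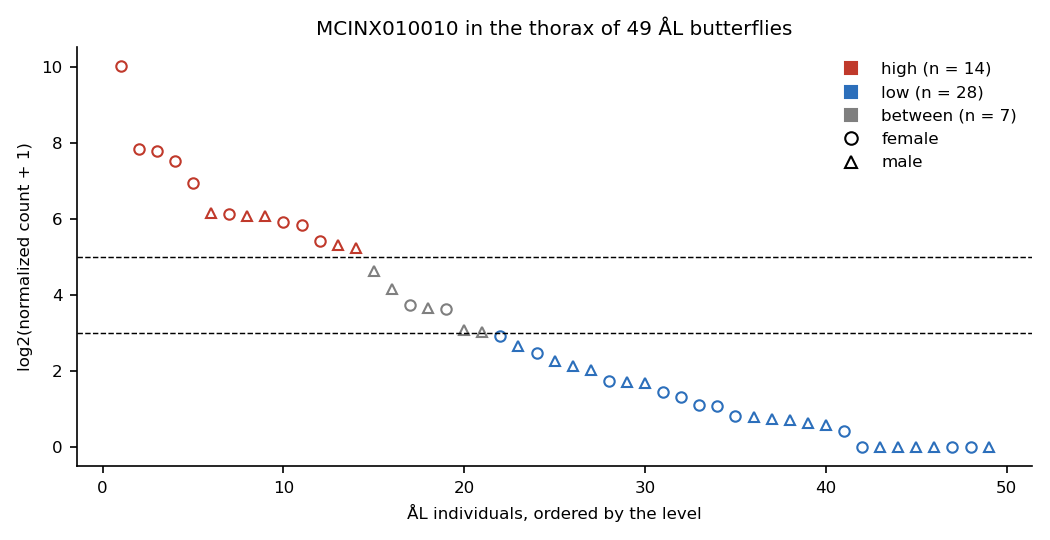
Log2(normalized count + 1) of MCINX010010 (vertical axis) in the 49 ÅL individuals in order of their level (horizontal axis), with high individuals in red, low in blue and those in between in gray, females as circles and males as triangles. The dashed lines are the thresholds at 5 and 3, the female at 10.01 stands above all others, and 8 low individuals lie at 0.

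High and low individuals were compared in all other genes by edgeR's quasi-likelihood test with sex as a covariate. A positive log2 fold change means a higher level in high individuals. Of the 6338 genes that passed a filter on low counts, 17 passed FDR<0.05 (0.268%). The level was higher in high individuals for 15 (0.237%) and lower for 2 (0.0316%). The 15 higher genes include a second hexamerin, 3 cuticle genes and a phosphatidylethanolamine binding protein, and the 2 lower genes are defensin-5 and a gene without a description. No description is given for 11 of the 17 genes in the study's lists. At an unadjusted p under 0.05 there were 405 genes, and the median log2 fold change over all genes tested was -0.045. DESeq2 called 16 genes, 15 of which are among the 17, and limma-voom called 15 genes, 13 of which are among the 17. Neither called a gene lower in high individuals, and DESeq2 gave no adjusted p for the 2 lower genes. Without the male AL0900290221 the count was 13, and MCINX000474, MCINX016301, MCINX006003 and MCINX005104 did not pass.

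The count depended on single individuals. When each of the 42 individuals was left out in turn, 8 to 18 genes were called. There were 8 without the high female AL0948150012 or the high female AL0901930052, and 9 without the high female AL0905110081 or the high male AL0911750292. There were 10 without the high female AL0902370052 or the low female AL0916760271, and 11 without the high individuals AL0907470012, AL0934080112 or AL0937370012 or the low male AL0906620011. Genes with few reads did not pass the filter in each of these fits. MCINX002866, MCINX011331, MCINX000211, MCINX012618, MCINX010096, MCINX003002, MCINX012882 and MCINX006606 were called in all 42 fits. MCINX015567 and MCINX008825 passed the filter in 29 of the fits and were called in these 29.

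**Figure D2:**
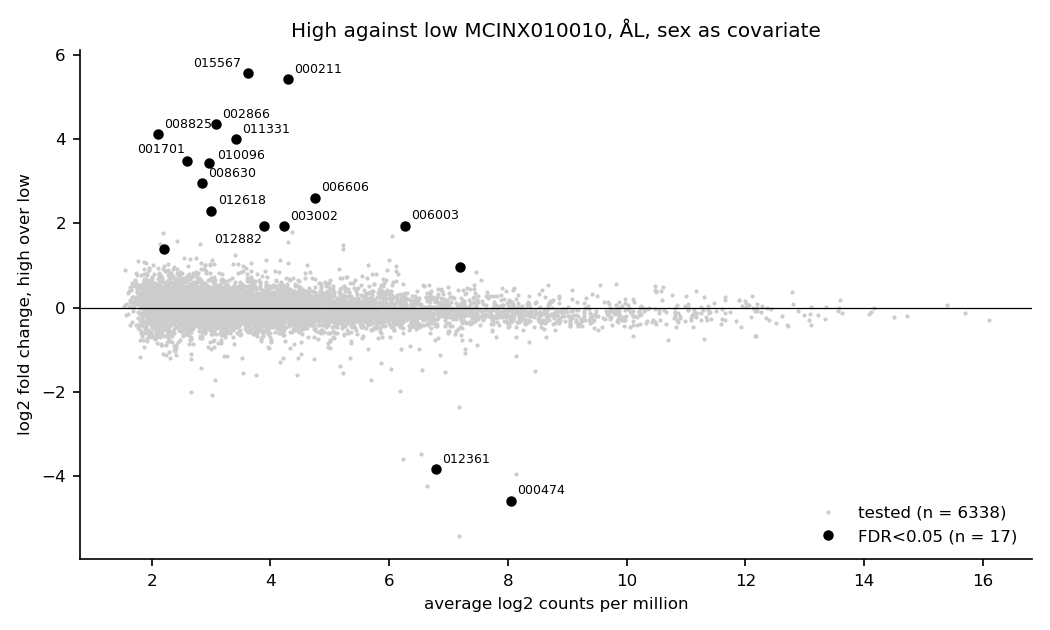
Log2 fold change of high over low ÅL individuals (vertical axis) against the average log2 CPM (horizontal axis) of the 6338 genes tested, with the 17 genes at FDR<0.05 in black, most of them labelled by the digits of their MCINX name. The 15 higher genes lie at 0.96 or more, and MCINX012361 and MCINX000474 lie at -3.84 and -4.58 beside other points with log2 fold changes under -3 that did not pass.

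The 3 other hexamerin genes that the study names were higher in high individuals. The study picked these genes by a difference between landscape types in these same samples, so they are not independent evidence of a direction, and further annotated hexamerin genes were not analysed here. MCINX015567, a hexamerin 2 gene, had 3.003 to 140 normalized counts in high individuals (median 21.1) and 0 to 4.54 in low individuals (median 0.511). The level in 12 of the 14 high individuals was above that in every low individual. The fitted log2 fold change was 5.56 ± 0.49 (SE, edgeR FDR = 4.12e-11). MCINX015566, the precursor of a hexamerin 2, and MCINX015572, a hexamerin 4, did not pass the filter on low counts and were tested among all 15901 gene models with a read, of which 111 were called (0.698%), 89 of them higher (0.56%). MCINX015566 had 0 to 61.7 normalized counts in high individuals (median 5.95) and 0 to 2.84 in low individuals (median 0.315), with a log2 fold change of 4.53 ± 0.54 (SE, edgeR FDR = 6.10e-08). MCINX015572 had 0 to 30.03 in high individuals (median 4.23) and 0 to 2.05 in low individuals (median 0), with a log2 fold change of 4.47 ± 0.65 (SE, edgeR FDR = 9.58e-06). In both genes the groups overlapped, since the high male AL0937370012 had no read of either.

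The 4 hexamerin genes did not have the same order of individuals. Among the 14 high individuals the rank correlation with MCINX010010 was 0.43 for MCINX015566, 0.51 for MCINX015567 and 0.51 for MCINX015572. None of these passed after adjustment. The female AL0905110081 had the highest level of MCINX010010, 1032, and 88.1 of MCINX015567. The male AL0916760292 had 66.8 of MCINX010010 and the highest level of MCINX015567, 140. Reads of near-identical hexamerin copies can be assigned to either copy, and how multiply mapped reads were counted is not given in the sources used here.

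Among the cuticle genes that passed the filter, MCINX000211, a cuticular protein 3 of the RR-2 family, had the largest log2 fold change. Its normalized count was 15.3 to 175 in high individuals (median 51.1) and 0 to 11.3 in low individuals (median 0.388). Every high individual was above every low individual, which held for 2 of the 6338 genes tested (0.0316%), MCINX000211 and MCINX002866. The opposite, every high individual below every low individual, held for 0 genes. The log2 fold change of MCINX000211 was 5.41 ± 0.50 (SE, edgeR FDR = 5.10e-11), and the 2 highest low individuals were the males AL0910040862 and AL0933890032.

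MCINX008825, a putative cuticle protein, had 1.22 to 38.04 normalized counts in high individuals (median 8.23) and 0 to 5.66 in low individuals (median 0). Of the high individuals 10 exceeded every low individual, and 16 low individuals had no read. The fitted log2 fold change was 4.12 ± 0.51 (SE, edgeR FDR = 3.15e-07). MCINX012882, a cuticular protein CPR99, was expressed in every ÅL individual of both groups, with 5.35 to 113 in high individuals (median 22.7) and 0.734 to 32.8 in low individuals (median 7.06). Its difference was smaller, a log2 fold change of 1.93 ± 0.35 (SE, edgeR FDR = 9.28e-04), and only 4 high individuals were above every low individual.

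A further pair of cuticle genes passed when no filter was applied. MCINX015047, a cuticular protein hypothetical 12, had 358 reads in 13 of the 14 high individuals and 3 reads in 3 of the 28 low individuals. Its normalized count reached 41.1 in high individuals (median 4.12) and 0.734 in low individuals (median 0), with a log2 fold change of 6.90 ± 0.55 (SE, edgeR FDR = 6.13e-13). MCINX015329, a cuticular protein CPR59B, reached 24.5 in high individuals (median 1.67) and 7.03 in low individuals (median 0), with a log2 fold change of 3.40 ± 0.62 (SE, edgeR FDR = 7.71e-04). These 5 genes belong to a list of 21 cuticle genes, of which 13 passed the filter. Of these 13, 3 were called higher (against 0.237% of all genes tested) and 0 lower, and 6 had an unadjusted p under 0.05 (against 405 of 6338). The median log2 fold change of the 13 was 0.31, against -0.045 over all genes tested. The list comes from the study's table of genes with a difference between landscape types in these same samples and is not independent evidence of a direction. The other 16 members did not pass with or without the filter. Among these, MCINX009331, a putative cuticle protein, had a median of 14439 in high and 19793 in low individuals, with a log2 fold change of -0.09 without the filter (edgeR FDR = 0.975).

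**Figure D3:**
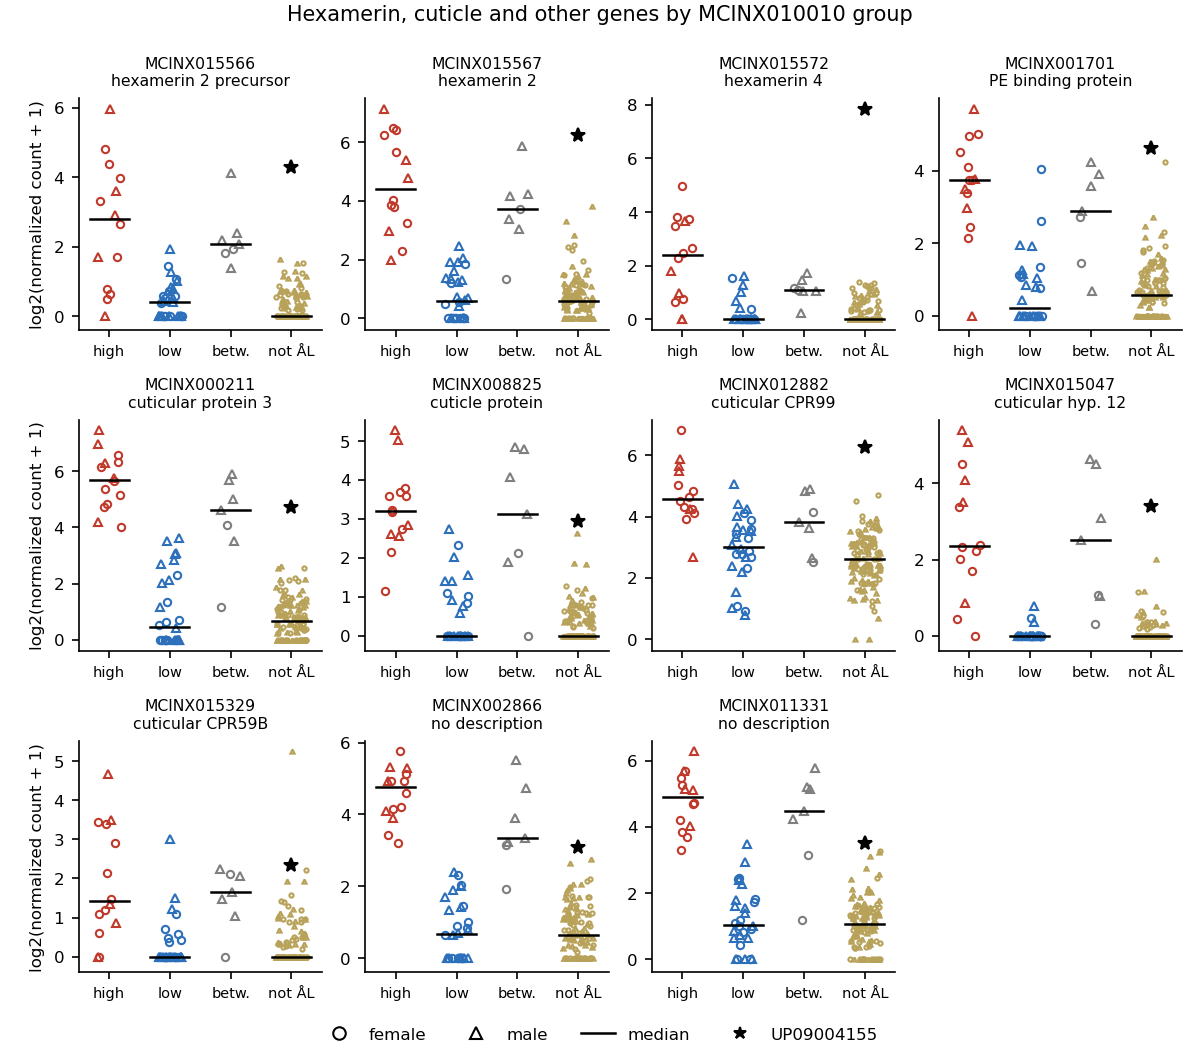
Log2(normalized count + 1) (vertical axes) of 3 hexamerin genes, the phosphatidylethanolamine (PE) binding protein gene, 5 cuticle genes and 2 genes without a description in high, low and in-between (betw.) ÅL individuals and in individuals of the other populations (not ÅL). Circles are females, triangles males, bars medians and the star the female UP09004155. In the panels of MCINX000211 and MCINX002866 no low individual reaches the high individuals.

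MCINX001701 encodes a phosphatidylethanolamine binding protein, a member of a family that binds phospholipids. Its normalized count was 0 to 51.4 in high individuals (median 12.4) and 0 to 15.5 in low individuals (median 0.169). A high individual was at 0 as well, while 14 low individuals had no read. The fitted log2 fold change was 3.47 ± 0.51 (SE, edgeR FDR = 1.83e-05).

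The genes without a description that led the list were MCINX002866 and MCINX011331. MCINX002866 had 8.14 to 53.3 normalized counts in high individuals (median 26.3) and 0 to 4.22 in low individuals (median 0.597), without overlap (log2 fold change 4.36 ± 0.39 SE, edgeR FDR = 5.10e-11). MCINX011331 had 8.96 to 77.4 in high individuals (median 29.3) and 0 to 10.1 in low individuals (median 1.07), and 13 of the 14 high individuals were above every low individual (log2 fold change 3.99 ± 0.37 SE, edgeR FDR = 5.10e-11). In these genes the difference between the groups was larger than the spread within either of them, as in MCINX000211.

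The other 8 called genes, named here after their values were seen, have no description either and overlapped between the groups. They were MCINX010096 (log2 fold change 3.42), MCINX008630 (2.96), MCINX006606 (2.61), MCINX012618 (2.30), MCINX006003 (1.95), MCINX003002 (1.93), MCINX016301 (1.39) and MCINX005104 (0.96), with edgeR FDR from 7.79e-06 to 0.0497. Among them, MCINX005104 had 131 to 861 normalized counts in high individuals (median 174) and 56.7 to 252 in low individuals (median 121). For MCINX006003 the high individuals had 34.96 to 528 (median 136) and the low individuals 1.47 to 506 (median 22.2). MCINX005104, MCINX016301 and MCINX006003 were close to the threshold and remained called in 27, 11 and 4 of the 42 fits with an individual left out. MCINX008630 passed the filter in 36 of these fits and was called in 35, with FDR = 0.0519 without the low female AL0916760271.

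Defensin-5 (MCINX000474) was lower in high individuals. It had 2.47 to 139 normalized counts in high individuals (median 11.3) and 3.12 to 4953 in low individuals (median 21.7). The low median was 1.92 times the high median, and 6 low individuals were above every high individual. The fitted log2 fold change was -4.58 ± 1.10 (SE, edgeR FDR = 0.0497). MCINX012361, which has no description, had 2.04 to 47.6 in high individuals (median 9.37) and 6.95 to 1499 in low individuals (median 19.4), with 8 low individuals above every high individual (log2 fold change -3.84 ± 0.87 SE, edgeR FDR = 0.0309). With an individual left out, MCINX000474 remained past the threshold in 14 of the 42 fits and MCINX012361 in 28. With limma-voom the log2 fold changes were -1.94 and -2.02 and neither passed (FDR = 0.712 and 0.552), and DESeq2 gave no adjusted p for them.

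Of the 8 antimicrobial peptide genes that the study listed as responding to flight, 5 passed the filter. Of these, 1 was called lower (against 0.0316% of all genes tested) and 0 higher, and 4 had an unadjusted p under 0.05 (against 405 of 6338). Their median log2 fold change was -3.95, against -0.045 over all genes tested. With limma-voom the median of the 5 was -1.94 and 0 were called, with 2 at an unadjusted p under 0.05. DESeq2 gave a median of -3.92 but no adjusted p for any of the 5, so its lack of calls is not a negative result. Cecropin 4 and 5 (MCINX012360) had 0.692 to 51.8 normalized counts in high individuals (median 2.50) and 0 to 2604 in low individuals (median 4.60), with a log2 fold change of -5.42 (edgeR FDR = 0.0778). Cecropin 3 (MCINX012359) had 5.14 to 148 in high individuals (median 10.4) and 4.94 to 4308 in low individuals (median 37.9), with a log2 fold change of -3.95 (edgeR FDR = 0.121). Gloverin 1 (MCINX009396) had a log2 fold change of -3.47 (edgeR FDR = 0.687), which was -1.95 without the low female AL0905620243 and -5.19 without the high female AL0902620131 (edgeR FDR = 0.807 and 0.0771). Without the filter 6 of the 8 were called lower, against 22 of 15901 genes (0.138%), with lebocin 4 (MCINX011164, -5.05), a gloverin 1 or 3 (MCINX002387, -5.87) and moricin 2 (MCINX014649, -5.90) among them. For the same 6 genes limma-voom gave FDR from 0.761 to 0.799, and DESeq2 gave no adjusted p. In moricin 2 the low female AL0905620243 alone had 671 of the 698 reads of the low group, and high individuals had 4 reads in all.

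The same few individuals were high in these genes. The low individuals AL0902370252 and AL0905620243 were among the 5 highest ÅL individuals in each of the 8 antimicrobial genes and in MCINX012361. AL0906620011 was among them in 8 of the 9 genes, AL0916760271 in 7 and AL0935520051 in 5. Of the high individuals, the female AL0902620131 was among the 5 highest in 2 genes and the male AL0902700033 in 1. In defensin-1 (MCINX014016) the highest level, 1807, was in the high male AL0902700033, against at most 879 in low individuals. Its log2 fold change was -0.71 (edgeR FDR = 0.919), or -3.48 without this male (edgeR FDR = 0.182) and -0.32 and -0.44 without the low males AL0905620173 and AL0902370252. It changed sign in males alone, without sex as a covariate and in individuals with a total of at least 2000000 counts.

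**Figure D4:**
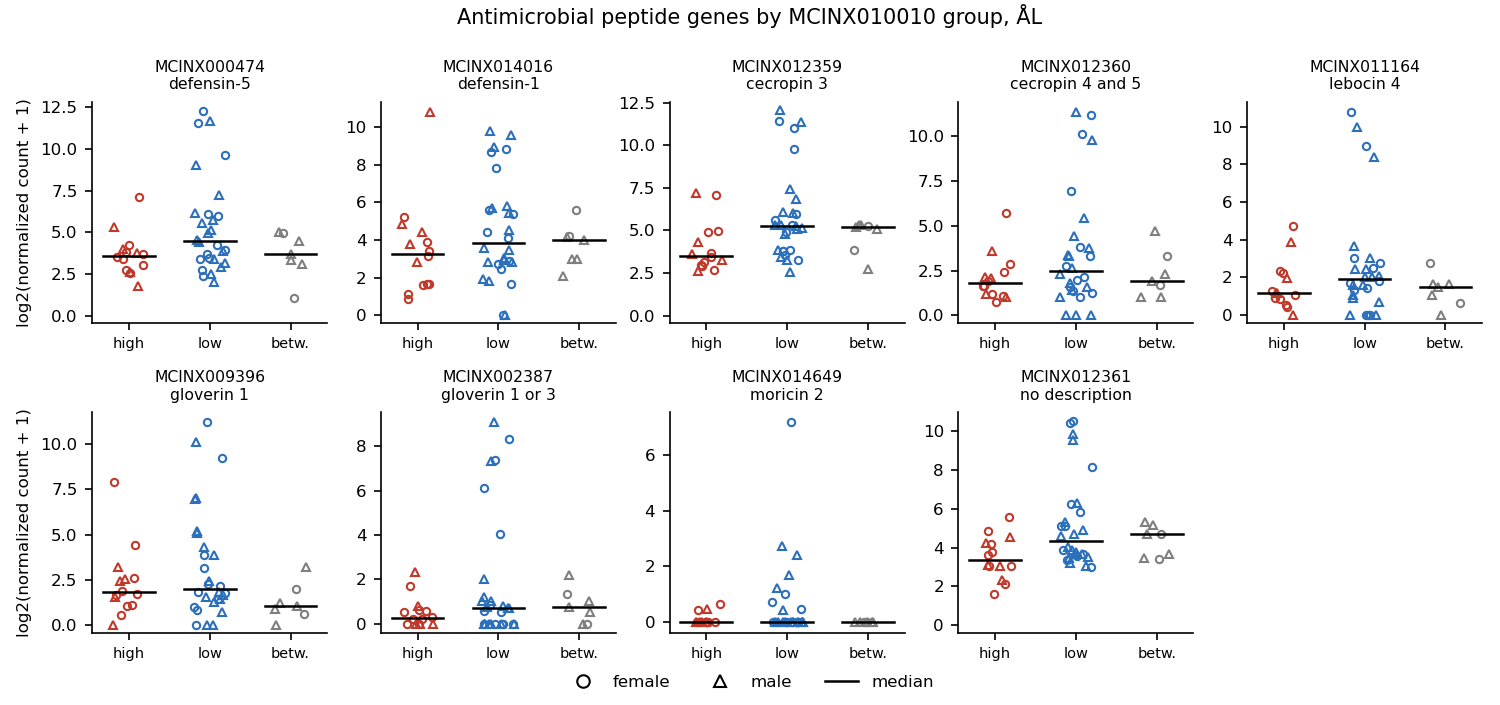
Log2(normalized count + 1) (vertical axes) of 8 antimicrobial peptide genes and MCINX012361 in high, low and in-between (betw.) ÅL individuals. Circles are females, triangles males and bars medians. The medians lie low in each group, and a few low individuals stand far above the rest, except in defensin-1, where a high male at 1807 normalized counts is highest.

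No member of the other lists was called by edgeR's quasi-likelihood or likelihood ratio test, DESeq2 or limma-voom. Of the genes of ecdysteroid and juvenile hormone metabolism 6 passed the filter, with a median log2 fold change of 0.06 and no gene at an unadjusted p under 0.05. The medians were -0.05 for 10 detoxification genes (1 at an unadjusted p under 0.05), -0.16 for 8 genes of lipid and sugar metabolism (2), -0.10 for 7 other immune genes (0), 0.04 for 6 genes of the respiratory chain and ATP synthase (0), 0.20 for 2 serine proteases (0) and -0.35 for the 3 muscle genes (0). These lists were also drawn from the study's tables of the same samples. The lists of signalling pathways were not chosen by expression, and their medians were -0.07 for 56 Wnt genes (2), 0.25 for 18 Notch genes (0) and 0.01 for 42 hedgehog genes (2).

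A further 6 genes that the study names in its text were not called. The log2 fold change was -0.16 for the hypoxia-inducible factor Hif-1a (MCINX007807), which controls the response to low oxygen, -0.10 for Nicastrin (MCINX013215), a subunit of the protease that cleaves Notch, and 0.22 for the Patched-related gene MCINX011439. It was -0.54 for Socs2 (MCINX002283), an inhibitor of cytokine signalling, and -0.10 for Tenectin (MCINX005469), an extracellular matrix protein. The lowest edgeR FDR of these 5 was 0.757. The chitinase-like gene MCINX013513 was tested without the filter only, with a log2 fold change of 1.07 (edgeR FDR = 0.758).

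The 7 individuals between the thresholds were in neither group. In the 15 higher genes, 6 of them were above the median of the low group in 12 to 15 genes, and the female AL0925010051 was above it in 8. High individuals were above this median in 13 to 15 of the genes and low individuals in 3 to 12. The 15 genes were chosen by the difference between these high and low individuals, so the positions of those 2 groups follow from the choice. The medians of the in-between individuals were 23.8 normalized counts for MCINX000211, 9.14 for MCINX002866, 21.4 for MCINX011331 and 12.2 for MCINX015567, in each case below the high and above the low median. For MCINX005104, also among the 15, the in-between median of 218 was above the high median of 174. AL0925010051 had 1.26 of MCINX000211, 1.51 of MCINX015567 and no read of MCINX008825 at a total of 3611081. When these 7 were compared with the low individuals, 5 of 6764 genes were called (0.0739%), and 4 of them are among the 15. These 4 had log2 fold changes of 3.86 for MCINX015567, 3.40 for MCINX000211, 3.23 for MCINX011331 and 2.99 for MCINX010096. This comparison shares the low individuals with that of the high group. Between high and in-between individuals 0 of 6418 genes were called, with 778 at an unadjusted p under 0.05.

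The comparison was repeated within each sex. Among females 7 of 6173 genes (0.113%) and among males 9 of 6441 genes (0.14%) were called, all higher in high individuals. The log2 fold change was 6.33 in females and 4.78 in males for MCINX015567, 6.30 and 4.68 for MCINX000211, 4.24 and 4.51 for MCINX002866 and 3.89 and 4.16 for MCINX011331. MCINX015572 had 5.46 in females and 3.04 in males, where it did not pass (edgeR FDR = 0.371), and MCINX012882 had 2.06 in females and 1.79 in males, where it did not pass (edgeR FDR = 0.677). MCINX001701 had 2.81 in females (edgeR FDR = 0.263) and 4.38 in males, and MCINX006606 had 1.44 in females (edgeR FDR = 0.766) and 3.94 in males. MCINX015567 and MCINX001701 did not pass the filter in males, and MCINX015572 passed it in neither sex. Their values there come from fits without the filter, and they are not among the genes counted as tested or called in that sex. The difference between the sexes was tested as an interaction, and 0 of 6338 genes passed at FDR<0.05 with edgeR or DESeq2, with 232 and 295 genes at an unadjusted p under 0.05.

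The individuals from UP, SA and ÖL had not been used to form the groups. The study left out individuals whose genotype did not match their labelled population. These were not singled out here, so any of them remain under their labelled population, also in the population covariate below. Of the individuals outside ÅL, only the female UP09004155 reached the level of the high group, with 1145 normalized counts of MCINX010010 and a log2 level of 10.16, whereas the highest values were 2.87 in SA and 3.83 in ÖL. Apart from this female, 50 of 124 individuals had no read of the gene. UP09004155 had 74.9 normalized counts of MCINX015567, 18.4 of MCINX015566 and 230 of MCINX015572, where the highest ÅL individual had 30.03. It had 25.7 of MCINX000211, 76.9 of MCINX012882, 23.7 of MCINX001701, 9.65 of MCINX015047 and 6.73 of MCINX008825. In 11 of the 15 higher genes it was above each of the 124 others, which held for 66 of the 6338 genes tested in ÅL (1.04%). Its defensin-5 level was 31.9, and 11 of the others were above it.

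The slope of each gene on the log2 level of MCINX010010 was fitted in these individuals with population and sex as covariates. Of 10628 genes tested, 270 were called (2.54%), 248 with a positive (2.33%) and 22 with a negative slope (0.207%). The 15 genes that were higher in high ÅL individuals had positive slopes, and 10 of them were called, which is 66.7% of the 15 and 4.03% of the 248. The slope was 0.81 ± 0.07 for MCINX015567 (SE, edgeR FDR = 5.14e-16), 0.69 for MCINX001701, 0.45 for MCINX008825, 0.35 for MCINX000211 and 0.34 for MCINX002866. Most of this rested on a single individual. Without UP09004155, 11 of the 15 passed the filter, 10 had a positive slope and 1 was called, MCINX015567 with 0.87 ± 0.15 (SE, edgeR FDR = 7.41e-06), while 344 of 9133 genes were called in all (3.77%), 313 of them with a positive slope (3.43%). MCINX000211, MCINX002866, MCINX008825 and MCINX001701 fell under the filter. These genes, all among the 10 called, had thus passed the filter only with UP09004155 included. Their calls are not support from the other individuals.

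The genes that were lower in high ÅL individuals had the opposite sign elsewhere. Defensin-5 had a slope of 0.93 ± 0.17 (SE) in the other populations and was called, and without UP09004155 the slopes of defensin-5, 1.14, and of MCINX012361, 0.92, were both called. Of the antimicrobial list, 7 genes passed the filter there and the 7 slopes were positive. Of these, 4 were called, against 2.33% of all genes with a positive call, or 6 without UP09004155, against 3.43%. Without UP09004155 the 124 individuals had a median of 1 read of MCINX010010 and a log2 level of at most 3.83. Slopes without this female thus rest on low counts, mostly within the range of the low ÅL group. Whether the slopes outside ÅL differ from the contrast in ÅL was not tested.

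**Figure D5:**
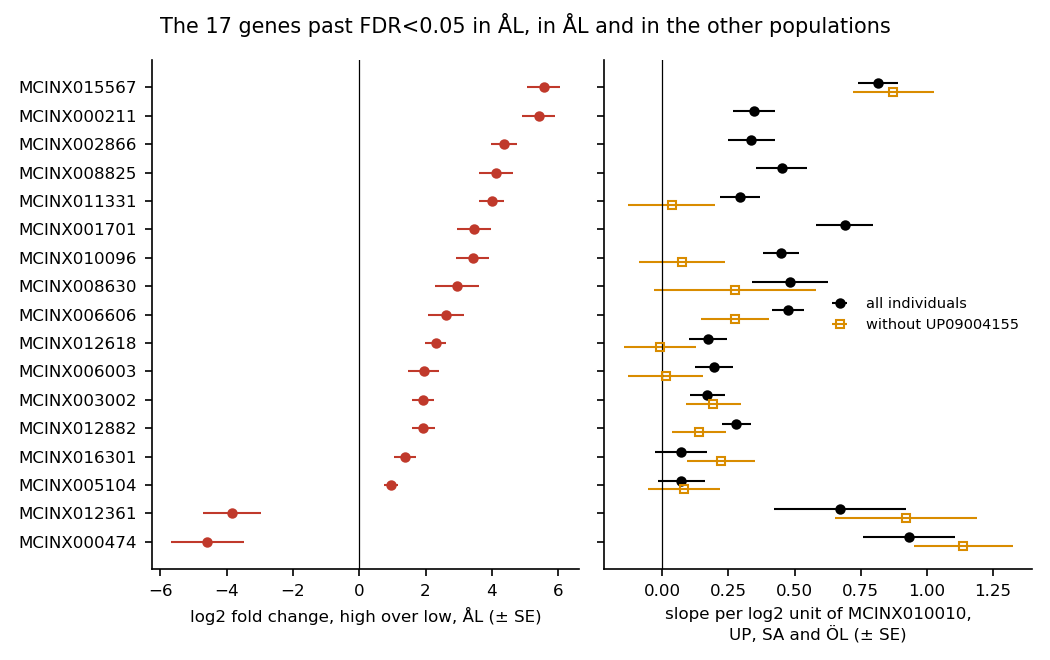
Left, log2 fold change of high over low ÅL individuals for the 17 called genes. Right, slope of the same genes per log2 unit of MCINX010010 in the UP, SA and ÖL individuals (black) and without UP09004155 (open squares, shown where the gene passed the filter), with bars for the standard error. MCINX015567 is at 0.81 and 0.87, most other higher genes move toward 0 without this female, and MCINX012361 and MCINX000474 are negative on the left and positive on the right.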

How the data were processed

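RNA from whole thorax was sequenced with 1 library per individual from the 3′ ends of transcripts. Per the labels, bases were called with CASAVA 1.7 and trimmed reads were placed on the genomic scaffolds with TopHat2 2.0.5. The authors then counted them within 16667 gene models. How strand and multiply mapped reads were treated is not given in the sources used here. The raw counts were deposited by the authors as whole numbers without normalization. The normalized counts were deposited as a signal per gene, obtained by the authors by scaling each individual's raw counts with its library size and TMM factor. Normalized and raw counts of an individual differ by a constant, whose largest range was 1.0001 times over genes with raw counts above 50.

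The groups follow the thresholds of 5 and 3 on log2(normalized count + 1) of MCINX010010 in ÅL individuals. The members and the gene lists were chosen with earlier results of these data known. Raw counts were tested in R 4.3.3 with edgeR 4.0.16 (TMM, filterByExpr with a minimum count of 10, quasi-likelihood F-test, sex as covariate), with Benjamini-Hochberg FDR<0.05 over all genes tested and MCINX010010 left out. Alternatives were DESeq2 1.42.0, limma-voom (limma 3.58.1), edgeR's likelihood ratio test, RLE factors, other filters, covariates and thresholds, counts thinned to a total of 1267351, each sex and each individual left out. The comparisons with the individuals between the thresholds, and the settings without the filter for single genes, were added after seeing the data. Permutation tests used 100000 permutations with scipy 1.17.1 (Python 3.11.15, pandas 2.3.3, numpy 2.4.6). Plots were made in matplotlib 3.10.9.

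The genes named are the 4 hexamerin genes, in each direction up to 10 described and 2 undescribed called genes with the largest log2 fold change (average logCPM of at least 1 and medians in the direction of the fit), and called or study-named members of the lists. This rule gave 6 described and 3 undescribed called genes. The marker, cuticle and antimicrobial genes without a call were named beside them. Descriptions come from the study's supplementary tables, which cover 1533 gene models. On simulated counts of this comparison the test recovered 25 of 49, 46 of 48 and 49 of 49 genes with log2 changes of 1, 2 and 4, and 49 of 50 with -2. There were 8 false calls, and 6023 genes were tested, changed and unchanged together. The simulation added no outlying individuals such as those seen in the antimicrobial genes, so its recovery does not carry over to them. No 2 of the 49 ÅL individuals agreed within sampling noise (1176 pairs, smallest chi-square per degree of freedom 13.8). Per the study's methods each individual came from a separate family, which the labels do not record. Some titles differ only in the last digit, such as AL0911750441 and AL0911750442, and the labels do not say what the digits mean. All individuals were treated as independent. Which ÅL individuals came from new or old local populations was not used here.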

Additional observations from a re-analysis of the deposited data

Results flagged for a closer look

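MCINX015566, the precursor of a hexamerin 2, had a log2 level of 4.13 in the male AL0902090043, 1 of the 7 ÅL individuals between the thresholds, and the next individual had 2.39. The gap was above the 95% critical value of Dixon's test for 7 values, 0.568. The same male had the highest level of MCINX015567 among these 7, 5.88, and the second highest of MCINX010010, 4.16. In this way 20 genes were examined in the 7 individuals, and chance gives about 1 such value in 20. The 14 high and 28 low individuals are too many for this test and were not examined by it.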

How the results depend on the processing

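The count of 17 genes was 10 at FDR<0.01, 111 without a filter on low counts, 7 in females, 9 in males, 7 in individuals with a total of at least 2000000 counts (11 high and 19 low), 9 without the female AL0905110081, 9 with thresholds of 6 and 2, 4 with thinned counts, and 29 for a slope over all 49 individuals. With at least 10 counts in every individual 2161 genes were left and 0 called, with 101 at an unadjusted p under 0.05. Of the 17 genes only MCINX005104 has that many counts in every individual, so this setting could not test the others. It was 0 against the individuals in between and 5 for these against the low group. With an individual left out it ranged from 8 to 18. In 10 other settings of scaling, tool, covariates, thresholds and individuals it ranged from 13 to 23.

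Outside ÅL the count of 270 was 130 without SA and 70 without ÖL, and 230 to 366 in 5 other settings. The log2 fold change of defensin-1 was 0.15 without sex as a covariate, 1.37 in males and 1.65 with a total of at least 2000000 counts, and its cause was not tested. The interaction with sex had 0 called genes in each setting. The differences in total count and in the share of females kept their sign in each setting run.

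Thinning to a total of 1267351 left 13 high and 26 low individuals and 4702 genes. No paired analysis was possible because the labels give no replicate numbers that high and low individuals share.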

Other observations

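Without the filter on low counts, 111 genes were called, 89 higher (0.56%) and 22 lower (0.138%) in high individuals, and 89 of the 111 did not pass the filter. Of the 89 higher genes 38 were also called by DESeq2 and 32 by limma-voom, and 30 by the 3 tools. DESeq2 gave no adjusted p for 29 of the 89. Of the 22 lower genes none was called by DESeq2, which gave no adjusted p for 17 of them, or by limma-voom. No read was counted in any low individual for 8 of the higher genes, and none in any high individual for 9 of the lower genes. In 6 of the higher and 6 of the lower genes a single individual had over 80% of the reads. A description was found for 17 of the 111. Among the genes without one, chosen after their values were seen, MCINX013993 had 360 reads in the high group and 11 in the low group (log2 fold change 4.55), MCINX001918 had 236 and 10 (4.49), and MCINX007833 had 185 and 15 (4.10). A single individual held 47.7% of the reads of MCINX013993, 38.6% of those of MCINX001918 and 18.5% of those of MCINX007833.

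Several called genes have numbers close to those of cuticle genes. Outside the cuticle list itself, 2 of the 12 genes called higher (16.7%) had a number within 10 of a listed cuticle gene, against 123 of the 6325 genes tested (1.94%). Without the filter 16 of the 84 genes called higher (19.05%) had such a number, against 346 of the 15880 genes tested (2.18%), and 0 of the 22 called lower. The putative cuticle protein MCINX008825 had MCINX008820, MCINX008823 and MCINX008824 as called neighbours in number. MCINX002866 was among those of MCINX002860, a glycine-rich cuticular protein, and MCINX010096 was the neighbour of MCINX010097, a cuticular protein of the RR-2 type, and neither of these cuticle genes was called itself. How the numbers relate to positions in the genome is not given in the sources used here, and these counts were made after seeing the data and were not tested.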
